A study of Mus musculus with 12 samples.

Results

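The 10 genes described here are 5 transcription factors of the epithelial-mesenchymal transition (EMT), Snai1, Snai2, Zeb1, Zeb2 and Twist1, and 5 epithelial identity genes, Epcam, Cldn6, Krt8, Krt18 and Esrp1. They were taken by symbol out of 18193 genes with a probe set annotated to exactly 1 gene, and each is represented by its probe set with the highest mean log2(signal + 16) over the 12 arrays. The cells were mouse embryonic stem (ES) cells of 129P2/OlaHsd origin (E14, Ainv15) in which doxycycline switches on a neurogenin 1 (Neurog1) transgene. Induced cells had 1 ug/ml doxycycline for 24, 48 or 72 h, and uninduced cells came from the maintenance culture at 0 h, with 3 arrays labelled as biological replicates in each of the 4 groups. All groups share the serum-containing medium with LIF, puromycin and G418 that the labels' protocols give. Uninduced cells were sampled at 0 h only, so effects of the transgene, of doxycycline and of the hours in culture cannot be told apart. The labels name 1 line and do not say whether replicates were separate cultures, and p-values measure only the spread between these arrays.

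In EMT, epithelial cells give up junctions and polarity and take on mesenchymal features. The Snail (Snai1, Snai2) and Zeb (Zeb1, Zeb2) zinc-finger proteins repress epithelial genes such as Cdh1 (E-cadherin) by binding E-box sequences, and Twist1 is a basic helix-loop-helix factor that promotes the same change. ES cells are epithelial in character, held together by E-cadherin, and neural cells replace it with N-cadherin (Cdh2). Zeb1 and Zeb2 also have roles in neural development, so their transcripts are not markers of EMT alone.

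The arrays carried the signs of their labels. Neurog1 had signals of 465 to 1152 on the 9 induced arrays, against 4.53 to 18.7 on the 3 uninduced arrays. The summed signal of 8 ES cell markers was 4994 to 5459 at 72 h, against 41460 to 47790 in uninduced cells, and that of 9 neuronal markers was 22750 to 25650 at 72 h, against 4370 to 5109 in uninduced cells. One array stood apart: across tested genes, induced 24 h replicate 1 had r = 0.812 with replicate 2 and r = 0.787 with replicate 3, against r = 0.961 or more in any other pair from the same group. The members' 24 h results are therefore also given without it. The deposited table holds MAS5 signals without detection calls, and the median signal of an array was 19.5 to 32.8, so signals near or under that range say little about level.

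The members were tested with limma across 11806 genes, with Benjamini-Hochberg adjustment over all of them, and the threshold for a call was an adjusted p of 0.05. Differences are log2 differences on the log2(signal + 16) scale ± SE from limma, for n = 3 arrays against 3, and this scale understates the change of dim genes. All 10 members passed the filter on dim genes, but Snai1 did so through the 24 h arrays alone, Zeb2 through the 48 h and 72 h arrays, and Esrp1 through the uninduced and 24 h arrays. Snai2 and Twist1 passed through the 24, 48 and 72 h arrays and not the uninduced ones. Such passing favours a rise of Zeb2, Snai2 and Twist1 and a fall of Esrp1 in the counts of calls below. The same filter applied to all genes tested.

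Of the 5 EMT factors, 2 were higher than in uninduced cells at 24 h (Zeb1 and Twist1), 4 at 48 h (these with Zeb2 and Snai2) and 3 at 72 h (Zeb1, Zeb2 and Twist1), and none was called lower at any of these times. Over all genes tested, 8.12% were called higher at 24 h, 22.6% at 48 h and 25.3% at 72 h. The 5 factors had median log2 differences of 1.31 at 24 h, 1.66 at 48 h and 1.25 at 72 h, beside 0.10, 0.12 and 0.09 over all genes tested. With 1 array left out the counts were 0 to 3 at 24 h (0 without uninduced replicate 1, 3 without induced 24 h replicate 1, and 1 without any other array), 2 to 4 at 48 h (2 without uninduced replicate 1, 48 h replicate 2 or 48 h replicate 3) and 2 to 3 at 72 h. Without induced 24 h replicate 1, 16.1% of all genes tested were called higher at 24 h. Snai1, the factor most often placed at the start of EMT, was not called at any time.

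**Figure D1:**
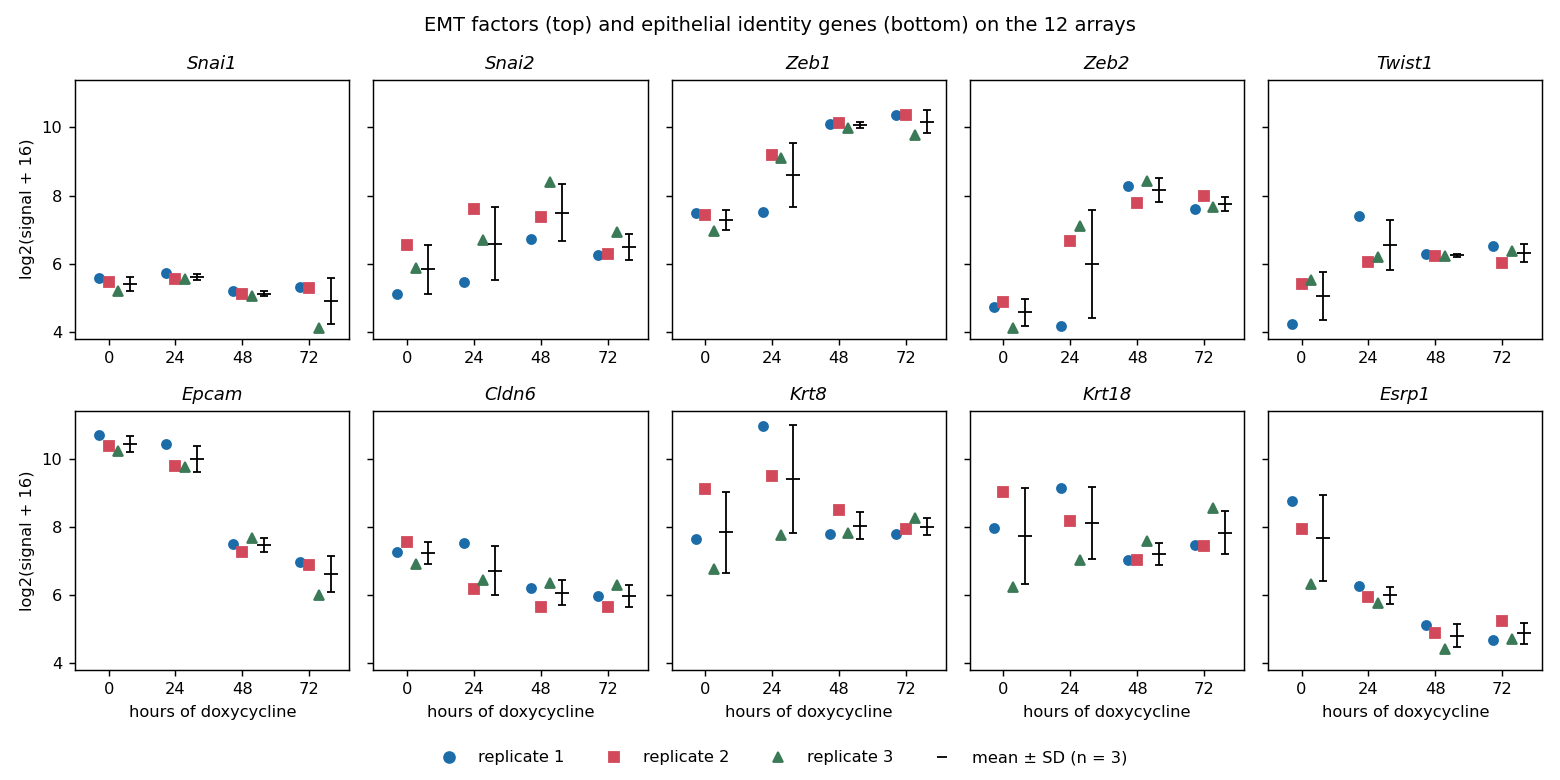
Log2(signal + 16) of the 5 EMT factors (top) and 5 epithelial identity genes (bottom) on each of the 12 arrays, by hours of doxycycline (0 h is uninduced cells), with coloured points for replicates 1, 2 and 3 and bars for the mean ± SD of 3 arrays. Zeb1 and Zeb2 rise by 48 h with 24 h replicate 1 far below its group, and Epcam and Esrp1 fall. Krt8 and Krt18 each spread more within the 0 h and 24 h groups than within the 48 h and 72 h groups.

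Zeb1, a zinc-finger repressor of epithelial genes, had signals of 163, 157 and 108 in uninduced cells, 168, 570 and 529 at 24 h, 1089, 1101 and 997 at 48 h, and 1302, 1299 and 860 at 72 h. The 48 h and 72 h arrays lay far above all uninduced arrays, and at 24 h replicates 2 and 3 did too, whereas replicate 1 was only just above the highest uninduced array. Zeb1 rose by 1.31 ± 0.38 at 24 h (limma, adjusted p = 0.0438), 2.78 ± 0.38 at 48 h (adjusted p = 0.00013) and 2.87 ± 0.38 at 72 h (adjusted p = 7.25e-05). The 24 h call was fragile: it held under 7 of 22 alternatives, with adjusted p from 8e-06 to 0.209, whereas without induced 24 h replicate 1 the difference was 1.85 ± 0.20 (adjusted p = 5.42e-05). From 24 h to 48 h Zeb1 rose further, by 1.47 ± 0.38 (adjusted p = 0.0183), a call lost without 48 h replicate 1 (adjusted p = 0.0645) or 48 h replicate 2 (adjusted p = 0.0624), or with only the 6 arrays compared fitted (adjusted p = 0.0966).

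Zeb1 had 3 further probe sets, all dimmer. One of them was called higher at 48 h (1.06, adjusted p = 0.00393) and at 72 h (1.26, adjusted p = 0.00099). The other two were not called at any time, and the dimmest, at 0.38 to 29.8 over all arrays, gave -0.24 for 48 h against 24 h, opposite in sign to the one used.

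Zeb2, the paralogue of Zeb1 with roles in neural and neural crest development, had signals of 10.6, 13.2 and 1.41 in uninduced cells, 2.08, 85.1 and 122 at 24 h, 295, 202 and 330 at 48 h, and 180, 238 and 188 at 72 h. It was near the floor on the uninduced arrays and on 24 h replicate 1, intermediate on 24 h replicates 2 and 3, and high on all 48 h and 72 h arrays. Zeb2 rose by 3.59 ± 0.57 at 48 h (adjusted p = 0.000413) and 3.18 ± 0.57 at 72 h (adjusted p = 0.000698). Because the uninduced signals were so low, the size at 48 h depended on the pseudocount and ranged from 2.21 to 5.20 over the alternatives. At 24 h the difference was 1.41 ± 0.57 (adjusted p = 0.139), and without induced 24 h replicate 1 it was 2.31 ± 0.27 (adjusted p = 9.34e-05). For 48 h against 24 h Zeb2 was called at 2.18 ± 0.57 (adjusted p = 0.0196), a call lost without 48 h replicate 1 (adjusted p = 0.0702) or 48 h replicate 3 (adjusted p = 0.066), or with only the 6 arrays compared fitted (adjusted p = 0.111). Of its 4 further probe sets 3 were called higher at 48 h and at 72 h, and the dimmest was not called. From brightest to dimmest they gave 1.22 (adjusted p = 0.0611), 1.305 (adjusted p = 0.0363), 0.42 (adjusted p = 0.395) and -0.18 (adjusted p = 0.74) at 24 h. For 48 h against 24 h the call was lost on the dimmest (adjusted p = 0.18) and on the next dimmest (adjusted p = 0.257).

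Twist1 had signals of 2.89, 26.4 and 30.1 in uninduced cells, 153, 50.3 and 56.7 at 24 h, 62.7, 59.4 and 58.3 at 48 h, and 76.1, 48.8 and 67.2 at 72 h. All 9 induced arrays were above all 3 uninduced arrays, and the highest value was on 24 h replicate 1. Twist1 rose by 1.49 ± 0.39 at 24 h (adjusted p = 0.0261), 1.19 ± 0.39 at 48 h (adjusted p = 0.0284) and 1.25 ± 0.39 at 72 h (adjusted p = 0.019). The calls leaned on uninduced replicate 1, where the signal was lowest: without it the differences were 1.08 (adjusted p = 0.115), 0.79 (adjusted p = 0.133) and 0.84 (adjusted p = 0.0925). At 48 h the call was also lost without any one 48 h array (highest adjusted p = 0.0771, without replicate 1), and at 72 h without 72 h replicate 1 (adjusted p = 0.0685) or 72 h replicate 3 (adjusted p = 0.0504). Without induced 24 h replicate 1, its highest array, the 24 h difference was 1.06 ± 0.33 (adjusted p = 0.0327). Twist1 was not called between 24 h and 48 h (-0.30 ± 0.39, adjusted p = 0.614).

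Snai2, the gene of Slug, a factor of neural crest and mesenchyme, had signals of 18.4, 76.9 and 42.6 in uninduced cells, 27.9, 177 and 87.7 at 24 h, 90.3, 150 and 321 at 48 h, and 60.6, 61.6 and 105 at 72 h. Only at 48 h did all 3 arrays lie above the uninduced arrays. Snai2 rose by 1.66 ± 0.54 at 48 h (adjusted p = 0.0299). That call was lost without uninduced replicate 1 (adjusted p = 0.13), uninduced replicate 3 (adjusted p = 0.07), 48 h replicate 2 (adjusted p = 0.064) or 48 h replicate 3 (adjusted p = 0.127). At 24 h Snai2 was at 0.74 ± 0.54 (adjusted p = 0.412), and at 1.31 ± 0.48 without induced 24 h replicate 1 (adjusted p = 0.0625). At 72 h it was at 0.65 ± 0.54 (adjusted p = 0.363), and its other probe set gave 0.68 at 48 h (adjusted p = 0.177).

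Snai1 had signals of 32.2, 27.9 and 20.4 in uninduced cells, 36.9, 31.1 and 31.1 at 24 h, 21.0, 18.8 and 16.9 at 48 h, and 23.9, 22.9 and 1.41 at 72 h. These signals exceeded the median of their array on only 5 of the 12 arrays. The difference from uninduced cells was 0.20 at 24 h (95% interval -0.42 to 0.83), -0.29 at 48 h (-0.91 to 0.34) and -0.50 at 72 h (-1.13 to 0.12). Without induced 24 h replicate 1 the 24 h difference was 0.15 (adjusted p = 0.787). Changes inside these intervals are not excluded by this number of arrays. All 48 h arrays were below all 24 h arrays, but that difference did not pass (-0.49 ± 0.29, adjusted p = 0.253).

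**Figure D2:**
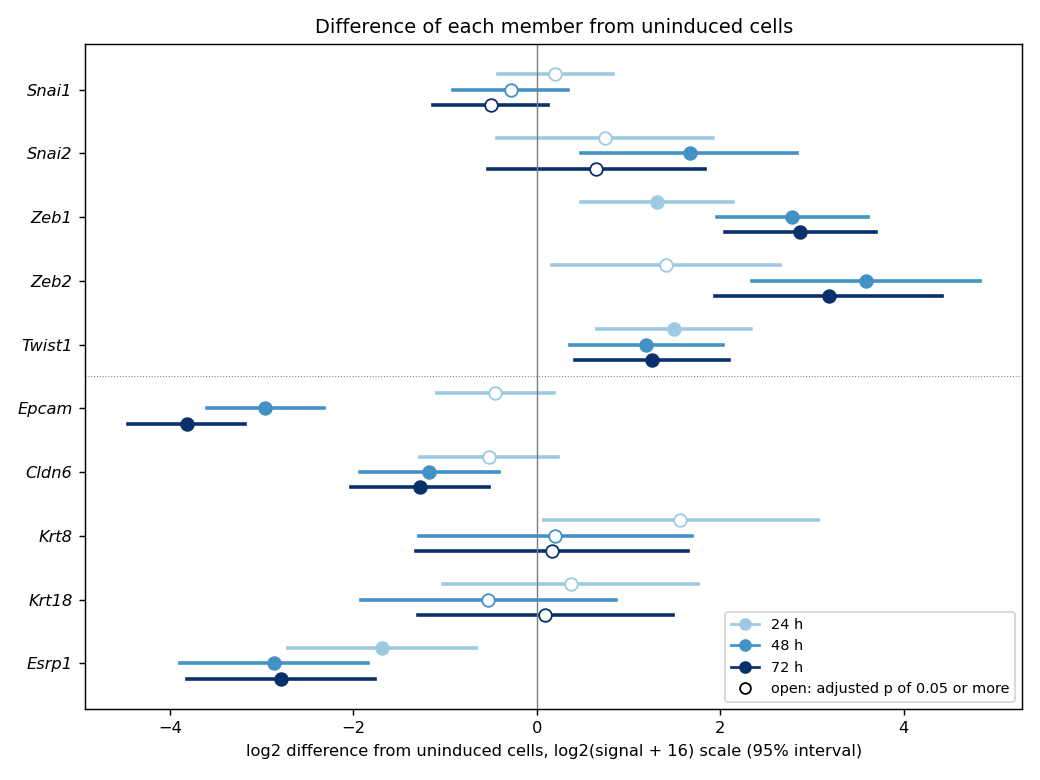
Log2 difference of each member from uninduced cells at 24, 48 and 72 h (points) with its 95% interval from limma (lines), with EMT factors above the dotted line and epithelial identity genes below it. Filled points have an adjusted p under 0.05: Zeb1 and Zeb2 reach 2.78 to 3.59 at 48 h and 72 h, Epcam reaches -3.82, and the intervals of Snai1, Krt18 and, at 48 h and 72 h, Krt8 include 0.

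Of the 5 epithelial identity genes, 1 was lower than in uninduced cells at 24 h (Esrp1) and 3 were lower at 48 h and at 72 h (Epcam, Esrp1 and Cldn6), and none was called higher. Over all genes tested, 3.18% were called lower at 24 h, 14% at 48 h and 18.6% at 72 h. The 5 genes had median log2 differences of -0.45 at 24 h, -1.17 at 48 h and -1.28 at 72 h. With 1 array left out the counts were 0 to 2 at 24 h (2 without induced 24 h replicate 1, 1 without uninduced replicate 3 or 48 h replicate 3, and 0 without any other array), 2 to 3 at 48 h and 3 at 72 h. Without induced 24 h replicate 1, 8.94% of all genes tested were called lower at 24 h. The keratin genes Krt8 and Krt18 were called at none of the times.

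Epcam, a cell-surface adhesion protein of epithelia and ES cells, had signals of 1642, 1315 and 1181 in uninduced cells, 1351, 861 and 842 at 24 h, 165, 136 and 187 at 48 h, and 109, 102 and 48.2 at 72 h. The uninduced and 24 h arrays overlapped, and the 48 h and 72 h arrays formed separate, successively lower bands. Epcam fell by 2.96 ± 0.30 at 48 h (adjusted p = 1.21e-05) and by 3.82 ± 0.30 at 72 h (adjusted p = 1.03e-06), a fold of 14.1 on this scale at 72 h. At 24 h it was at -0.45 ± 0.30 (adjusted p = 0.356), and at -0.67 ± 0.26 without induced 24 h replicate 1 (adjusted p = 0.073). The step between 24 h and 48 h was -2.51 ± 0.30 (adjusted p = 0.00017). In bulk samples fewer cells with the transcript and less transcript per cell cannot be told apart. The dimmer of the 2 Epcam probe sets was called lower at 48 h (-1.21, adjusted p = 0.0237) and at 72 h (-1.43, adjusted p = 0.00806), and was not called for 48 h against 24 h (-1.02, adjusted p = 0.0776).

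Esrp1, a splicing regulator that maintains epithelial isoforms, had signals of 420, 228 and 63.2 in uninduced cells, 60.3, 45.7 and 37.8 at 24 h, 18.5, 13.5 and 5.45 at 48 h, and 9.65, 21.4 and 10.3 at 72 h. Every induced array was below every uninduced array, although uninduced replicate 3 was only just above the highest 24 h array, and the 48 h and 72 h signals lay under the array medians. Esrp1 fell by 1.68 ± 0.47 at 24 h (adjusted p = 0.0376), 2.86 ± 0.47 at 48 h (adjusted p = 0.00053) and 2.79 ± 0.47 at 72 h (adjusted p = 0.000455). The calls at 48 h and 72 h held under all 21 alternatives, and the 24 h call held under 9 of them (adjusted p 0.00159 to 0.182). For 24 h the lowest size, -1.14, came without uninduced replicate 1 (adjusted p = 0.152), and without induced 24 h replicate 1 it was -1.82 ± 0.52 (adjusted p = 0.0207).

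Cldn6, a tight junction claudin of early epithelia and pluripotent cells, had signals of 137, 172 and 104 in uninduced cells, 169, 56.8 and 69.7 at 24 h, 57.5, 33.9 and 66.2 at 48 h, and 45.9, 33.8 and 62.6 at 72 h. At 24 h replicate 1 lay within the uninduced range and the other two below it, and all 48 h and 72 h arrays were below it. Cldn6 fell by 1.17 ± 0.35 at 48 h (adjusted p = 0.0194) and by 1.28 ± 0.35 at 72 h (adjusted p = 0.0101). The 48 h call was lost without uninduced replicate 1 (adjusted p = 0.0545), uninduced replicate 2 (adjusted p = 0.0737) or 48 h replicate 2 (adjusted p = 0.088). At 24 h it was at -0.53 ± 0.35 (adjusted p = 0.365), and at -0.94 ± 0.28 without induced 24 h replicate 1 (adjusted p = 0.0269).

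Krt8 and Krt18 encode the type II and type I keratins that pair into the intermediate filaments of simple epithelia. Krt8 had signals of 182, 535 and 93.1 in uninduced cells, 1962, 703 and 201 at 24 h, 203, 344 and 211 at 48 h, and 205, 229 and 292 at 72 h. Krt18 had signals of 232, 502 and 59.2 in uninduced cells, 547, 269 and 113 at 24 h, 114, 114 and 174 at 48 h, and 161, 158 and 359 at 72 h. Within the uninduced group both genes were highest on replicate 2 and lowest on replicate 3, and within the 24 h group both were highest on replicate 1 and lowest on replicate 3. At 72 h both were highest on replicate 3, and at 48 h they had different highest arrays.

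**Figure D3:**
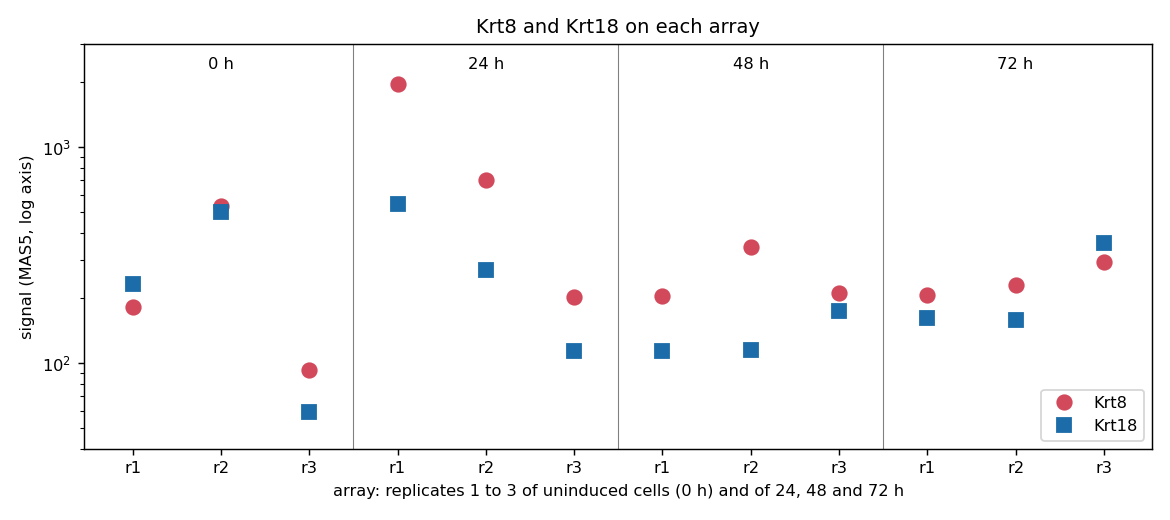
MAS5 signal (log axis) of Krt8 (circles) and Krt18 (squares) on each array, with replicates 1 to 3 of uninduced cells (0 h), 24, 48 and 72 h. Both genes are lowest on uninduced replicate 3 (93.1 and 59.2) and highest on 24 h replicate 1 (1962 and 547), and levels of the 2 probe sets are not comparable with each other.

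The spread of these keratin genes within groups was among the widest on the array. The pooled SD within groups was 1.02 log2 units for Krt8 and 0.95 for Krt18, at percentiles 99.1 and 98.4 of all genes tested, whose median was 0.37. Among the other members Zeb2 was at 0.84 (percentile 96.3), Snai2 at 0.79 (percentile 95.1) and Esrp1 at 0.68 (percentile 91.2). Twist1 was at 0.53, Zeb1 at 0.52, Cldn6 at 0.47, Epcam at 0.36 and Snai1 at 0.36. The difference of Krt8 from uninduced cells was 1.56 ± 0.69 at 24 h (adjusted p = 0.169), 0.20 ± 0.69 at 48 h (95% interval -1.29 to 1.69) and 0.16 ± 0.69 at 72 h (-1.32 to 1.65). For Krt18 it was 0.37 at 24 h (-1.02 to 1.76), -0.53 at 48 h (-1.92 to 0.86) and 0.09 at 72 h (-1.30 to 1.48). At 48 h and 72 h these intervals include falls as large as that of Cldn6, so such falls are not excluded at this spread. Without induced 24 h replicate 1 the 24 h differences were 0.79 for Krt8 (adjusted p = 0.339) and -0.15 for Krt18 (adjusted p = 0.891). Among the alternatives Krt8 was called at 24 h only without 24 h replicate 3 (2.39, adjusted p = 0.0223), which also gave -2.19 for 48 h against 24 h (adjusted p = 0.0204). All 3 Krt8 probe sets were highest on 24 h replicate 1, at 1492 to 1962.

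Other epithelial cell types were looked for beside the keratins, since trophoblast, endoderm and surface ectoderm also express them. The summed signal of 9 trophoblast markers was 925 to 1366 at 24 h, against 573 to 823 in uninduced cells, and 1366 was on 24 h replicate 1. Most of that sum was Tfap2c (663 to 1045 at 24 h, against 279 to 533 in uninduced cells), while Gata3 was at 1.31 to 5.13 at 24 h, against 6.93 to 12.7 in uninduced cells, and Cdx2 was at 14.3 to 19.2 at 24 h, against 0.93 to 30.6 in uninduced cells. The sum of 12 endoderm markers was 340 to 778 at 24 h, against 336 to 505 in uninduced cells, highest again on 24 h replicate 1. At 72 h that sum was 511 to 1789, with 1789 on replicate 3, the 72 h array with the most Krt18, and 4 of 9 tested endoderm markers were called higher at 72 h and 0 lower. Over all genes tested, 25.3% were called higher and 18.6% lower at 72 h. Foxa2 was at 70.6 to 88.6 at 72 h, against 3.03 to 9.32 in uninduced cells, and Sox17 was at 25.9 to 218.6 at 72 h, against 9.46 to 13.97 in uninduced cells. Dab2 was at 116 to 438 at 72 h, against 24.1 to 70.1 in uninduced cells, while Afp was at 1.10 to 2.48 at 72 h, against 2.30 to 13.4 in uninduced cells. For 8 surface ectoderm markers the sum was 287 to 331 at 72 h, against 591 to 1205 in uninduced cells, and Krt14 was at 3.54 to 12.4 at 72 h, against 9.70 to 18.4 in uninduced cells. The part of such cells in the keratin values was not tested.

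Promoter sequences are shown for the 4 epithelial members that RefSeq's table (GRCm38.p6) holds, which leaves out Esrp1. Snail and Zeb proteins bind the E-box CACCTG, which reads CAGGTG on the other strand. Each runs 5′ to 3′ on the strand of the gene, from 250 bases before to 50 bases after the annotated start, with either form of this motif in capitals. They lie at chr17:87635729-87636028 (+) for Epcam, chr17:23679115-23679414 (+) for Cldn6, chr15:102004293-102004592 (-) for Krt8 and chr15:102027966-102028265 (+) for Krt18.
Epcam: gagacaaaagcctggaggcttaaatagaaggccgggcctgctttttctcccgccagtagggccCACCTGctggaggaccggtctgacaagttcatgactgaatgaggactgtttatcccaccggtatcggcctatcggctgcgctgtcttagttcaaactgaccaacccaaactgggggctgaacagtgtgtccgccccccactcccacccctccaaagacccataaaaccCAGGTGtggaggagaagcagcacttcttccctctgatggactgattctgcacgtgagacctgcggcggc
Cldn6: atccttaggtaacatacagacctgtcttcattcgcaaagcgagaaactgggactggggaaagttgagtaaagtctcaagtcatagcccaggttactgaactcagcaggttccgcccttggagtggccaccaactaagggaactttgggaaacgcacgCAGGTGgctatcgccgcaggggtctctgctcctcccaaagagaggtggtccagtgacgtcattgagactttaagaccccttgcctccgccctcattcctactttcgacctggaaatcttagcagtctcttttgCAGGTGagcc
Krt8: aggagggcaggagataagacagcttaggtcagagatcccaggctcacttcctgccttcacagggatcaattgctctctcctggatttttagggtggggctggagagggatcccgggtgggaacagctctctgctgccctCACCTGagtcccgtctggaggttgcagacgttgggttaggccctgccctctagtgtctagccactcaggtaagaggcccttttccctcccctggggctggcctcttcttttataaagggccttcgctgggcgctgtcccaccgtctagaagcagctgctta
Krt18: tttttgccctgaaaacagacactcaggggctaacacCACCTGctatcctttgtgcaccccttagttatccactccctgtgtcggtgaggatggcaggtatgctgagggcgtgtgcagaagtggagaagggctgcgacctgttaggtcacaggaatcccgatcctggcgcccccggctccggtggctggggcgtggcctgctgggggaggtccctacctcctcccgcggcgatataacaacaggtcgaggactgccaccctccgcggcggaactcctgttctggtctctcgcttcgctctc

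All 4 windows hold the motif, with 2 copies each in Epcam and Cldn6 and 1 each in Krt8 and Krt18. In Epcam the copies begin 187 and 19 bases before the start, in Krt8 111 and in Krt18 214 bases before it. Cldn6 has one beginning 93 bases before the start and one beginning 40 bases after it. Of 32851 mouse promoter windows of this length in the same table, 20.2% hold at least 1 copy and 2.88% hold 2 or more. Among the EMT factors, Snai1 has 1 copy, beginning 126 bases before its start, and Twist1 and the 4 annotated Zeb2 starts have none. The motif overlaps the general E-box CANNTG, which 72.3% of the windows hold on either strand. A match is a description of these letters and not evidence of binding. A link between copies of the motif and the change of a member was not tested.

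In pairs of induced times, Zeb1, Zeb2 and Epcam were the members called for 48 h against 24 h, both Zeb genes higher and Epcam lower. Over all genes tested, 10.3% were called higher and 7.55% lower in that comparison. Esrp1 was at -1.18 ± 0.47 there (adjusted p = 0.104), with all 48 h arrays below all 24 h arrays. For 72 h against 48 h limma called 0 of the 10 members, and 0.796% of all genes tested. At an unadjusted p under 0.05 there was 1 member, Epcam (-0.86 ± 0.30, adjusted p = 0.288), whose 72 h arrays were all below its 48 h arrays.

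The genes that surround the members in the same programme were described from lists drawn from general knowledge, with some genes in several lists. Their counts at 48 h stand beside 22.6% higher and 14% lower over all genes tested, or 32.9% higher and 24% lower without induced 24 h replicate 1. At 48 h, 8 of 11 tested further EMT transcription factors were higher than in uninduced cells and 1 was lower, with a median difference of 1.27. The Sox factors Sox11 (4.07 ± 0.30) and Sox4 (3.89 ± 0.32), both also neuronal differentiation factors, rose most, followed by Tcf4 (2.12 ± 0.50), an E-protein partner of helix-loop-helix factors, and the Hippo effector Yap1 fell by 0.99 ± 0.23. Foxc2, Gsc, Prrx1 and Twist2, factors tied to mesenchyme, did not pass the filter on dim genes, with signals at 48 h of at most 35.7. Prrx1 was at 17.5 to 35.7 at 48 h, against 4.01 to 13.7 in uninduced cells. Twist2 was at 15.2 to 22.4 at 48 h, against 2.68 to 7.46 in uninduced cells. Among the 8 called higher were Foxc1 (48.45 to 68.36 at 48 h, against 1.27 to 5.24 in uninduced cells) and Prrx2. Signals of Prrx2 were 44.97 to 145.7 at 48 h, against 11.8 to 30.3 in uninduced cells. At 24 h only Sox4 (2.54) and Sox11 (1.59) of the 11 were called, and 5 were called without induced 24 h replicate 1. All genes tested had 8.12% higher and 3.18% lower at 24 h, and 16.1% higher and 8.94% lower without that array.

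Epithelial regulators fell in 5 of 7 tested genes at 48 h and in 6 at 72 h, and rose in none. Over all genes tested, 14% were lower at 48 h and 18.6% at 72 h. Klf5, a zinc-finger factor of ES cells and epithelia, was lower by 3.47 ± 0.28 at 48 h (adjusted p = 2.73e-06), the RNA-binding protein gene Rbm47 by 2.60 ± 0.26 and the grainyhead factor Grhl2, which maintains epithelial adhesion genes, by 2.39 ± 0.35. Grhl2 had signals of 45.1, 56.6 and 30.7 at 48 h, against 433, 234 and 246 in uninduced cells. Klf5, Rbm47 and Elf3 were already lower at 24 h, by 1.85 ± 0.28, 1.13 ± 0.26 and 0.86 ± 0.25, and without induced 24 h replicate 1 the count at 24 h was 5 of 7. Without that array 8.94% of all genes tested were called lower at 24 h, against 3.18% with it. The paralogue of Esrp1, Esrp2, gave a 48 h difference of -0.07 ± 0.36 (adjusted p = 0.898), with signals of 27.6 to 34.3 at 48 h, against 19.3 to 44.1 in uninduced cells. Ovol2, a repressor of Zeb genes, did not pass the filter, at 12.9 to 17.3 at 48 h, against 14.1 to 36.2 in uninduced cells.

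Of 31 tested genes of junctions and polarity, 7 were lower and 3 higher at 48 h, with a median of -0.50, where 14% of all genes tested were lower and 22.6% higher. At 72 h 12 of the 31 were lower and 2 higher, beside 18.6% lower and 25.3% higher over all genes tested. Cdh1 had signals of 209, 374 and 331 at 48 h, against 2491, 2189 and 1849 in uninduced cells, and fell by 2.80 ± 0.27 (adjusted p = 1.01e-05). At 24 h Cdh1 was at -0.04 ± 0.27 (adjusted p = 0.941), with signals of 1789 to 2825, and at -0.25 ± 0.23 without induced 24 h replicate 1 (adjusted p = 0.467). The desmosomal cadherin Dsg2 (-2.47 ± 0.58) and the claudin Cldn4 (-1.72 ± 0.46) were the next largest falls at 48 h, and the polarity gene Pard3 rose by 1.40 ± 0.23. All arrays share one estimate of the spread, and without induced 24 h replicate 1 the 48 h counts were 12 lower and 7 higher of the 31, beside 24% lower and 32.9% higher over all genes tested. Of 11 tested keratin, protease and trafficking genes 6 fell and 1 rose at 48 h, with the epithelial sorting adaptor Ap1m2 at -3.20 ± 0.41, Krt17 at -1.78 ± 0.21 and the protease St14 at -1.69 ± 0.38. The gene that rose was Cd24a (2.99 ± 0.27), a surface protein also of neuroblasts.

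**Figure D4:**
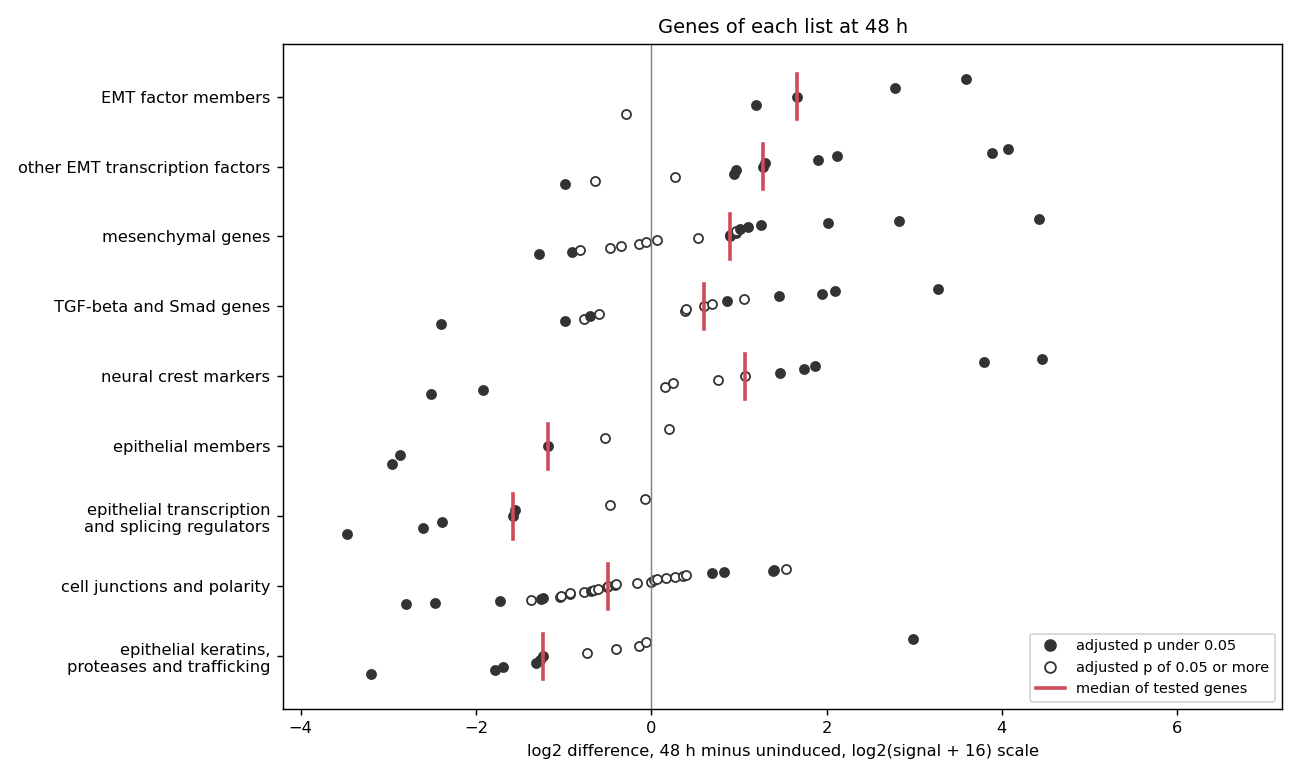
Log2 difference of each tested gene at 48 h from uninduced cells, by list, with filled points for an adjusted p under 0.05 and a red bar at the median of the tested genes. EMT, mesenchymal and neural crest lists have medians of 0.89 to 1.66 and epithelial lists of -0.50 to -1.57, with called genes on both sides of 0 in 6 of the 9 lists.

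Mesenchymal genes had calls in both directions. Of 19 tested, 9 rose and 2 fell at 48 h, and 8 rose and 4 fell at 72 h. Over all genes tested, 22.6% were higher and 14% lower at 48 h, and 25.3% higher and 18.6% lower at 72 h. Cdh2 had signals of 1467, 1343 and 1260 at 48 h, against 37.2, 87.8 and 30.8 in uninduced cells, and rose by 4.43 ± 0.31 (adjusted p = 1.02e-06). It was already higher at 24 h (1.31 ± 0.31, adjusted p = 0.018), when Cdh1 was not called, and at 1.56 ± 0.27 without induced 24 h replicate 1 (adjusted p = 0.00118). The cadherin Cdh11 rose by 2.82 ± 0.30 at 48 h and the intermediate filament gene Vim by 1.01 ± 0.21, with signals of 4332 to 4649 at 48 h, against 2162 to 2291 in uninduced cells. Fibronectin (Fn1), a matrix gene often used to mark EMT, was at 0.53 ± 0.33 at 48 h (adjusted p = 0.23) and -0.47 ± 0.33 at 72 h (adjusted p = 0.27). Thy1 (-1.28 ± 0.29) and the matrix gene Tgfbi (-0.91 ± 0.28) fell at 48 h. The smooth muscle actin gene Acta2 was at -0.34 ± 0.76 at 48 h (adjusted p = 0.76) and rose by 2.45 ± 0.76 at 72 h (adjusted p = 0.0189).

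**Figure D5:**
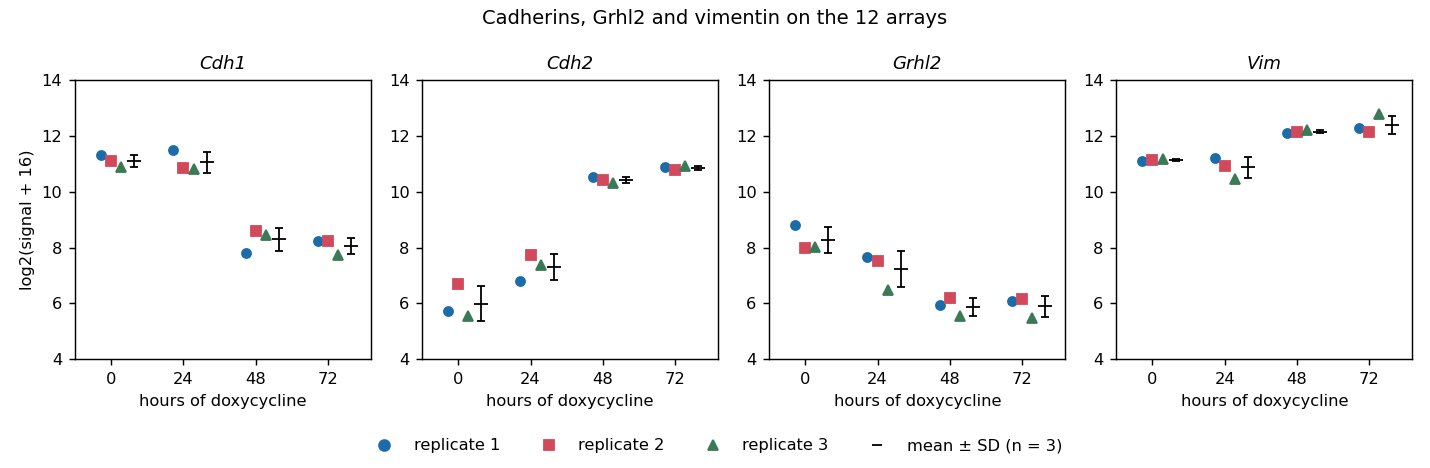
Log2(signal + 16) of Cdh1, Cdh2, Grhl2 and Vim on each of the 12 arrays by hours of doxycycline (0 h is uninduced cells), with points for replicates and bars for the mean ± SD of 3 arrays. Cdh2 is higher at 24 h while Cdh1 still overlaps the uninduced arrays, and by 48 h Cdh1 has fallen by 2.80 and Cdh2 is 4.43 higher.

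Genes of TGF-beta signalling, a known inducer of EMT, rose in 5 and fell in 3 of 15 tested at 48 h, where 22.6% of all genes tested were higher and 14% lower. The receptor gene Tgfbr1 was at 3.27 ± 0.51, the ligand gene Tgfb2 at 2.10 ± 0.31 and the inhibitor Smad7 at -2.40 ± 0.29. Bmp4 and Tgfb1 were also called lower at 48 h. Signals of Bmp4 were 226 to 582 at 48 h, against 608 to 676 in uninduced cells. Those of Tgfb1 were 16.7 to 24.0 at 48 h, against 34.6 to 55.8 in uninduced cells. Without induced 24 h replicate 1, 8 of the 15 rose and 5 fell at 48 h, beside 32.9% higher and 24% lower over all genes tested.

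Markers of 2 cell types that express Zeb or Snail genes, neural crest and neurons, were also described. Their counts, and those of fibroblast markers, stand beside 22.6% higher and 14% lower over all genes tested at 48 h. Of 11 tested neural crest markers 5 rose and 2 fell at 48 h, and the sum of 16 on the array was 1233 to 1523 at 48 h, against 602 to 806 in uninduced cells. Pax3 was at 4.46 ± 0.30, whereas Foxd3 was at -2.51 ± 0.46 and Sox10 had signals of 12.1 to 34.2 at 48 h, against 18.1 to 51.9 in uninduced cells. Of 9 neuronal markers 8 rose at 48 h, with sums of 14270 to 19310 at 48 h, against 4370 to 5109 in uninduced cells, and Tubb3 had signals of 3101 to 3781 at 48 h, against 332 to 504 in uninduced cells. Fibroblast and feeder markers summed to 184 to 305 over 10 genes at 48 h, against 162 to 192 in uninduced cells, and of the 3 tested 2 rose and 1 fell at 48 h. Col1a2 was at 63.3 to 113 at 48 h, against 16.8 to 44.5 in uninduced cells, and Pdgfrb at 35.7 to 48.4 at 48 h, against 10.3 to 23.0 in uninduced cells, while Thy1 was lower. Col1a1 was at 4.96 to 14.6 at 48 h, against 2.42 to 24.6 in uninduced cells, and Dcn at 2.34 to 9.34 at 48 h, against 2.53 to 6.69 in uninduced cells. The part of any of these cell types in the members' values was not tested.

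The tested genes whose pattern over the 12 arrays was most like each member's were found by Pearson's r of log2(signal + 16), which the 4 groups and the one array that stood apart drive in common. Zeb1 was followed most closely by Zfp658 (r = 0.987), Pde7a (r = 0.987) and Kif21a (r = 0.984), and Zeb2 by Ralgps2 (r = 0.985), Zfp90 (r = 0.981) and Pigk (r = 0.979). The nearest to Epcam were Pycard (r = 0.983), AU018091 (r = 0.982) and Stat6 (r = 0.981). Esrp1 was nearest to Dppa3 (r = 0.972), Ccdc43 (r = 0.964) and Mov10 (r = 0.955), and the 3 nearest to Cldn6 included another claudin, Cldn7 (r = 0.944). For Twist1 the nearest gene was Rbm22 (r = 0.958), for Snai2 Lpl (r = 0.935) and for Snai1 Tnfrsf13c (r = 0.898). Krt8 was nearest to Garre1 (r = 0.934) and Krt18 to Isg20l2 (r = 0.914), and neither keratin was among the 3 nearest of the other.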

How the data were processed

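Total RNA was extracted with Trizol and labelled as biotinylated cRNA for Affymetrix arrays, per the labels' protocols. The deposited values are intensity on a linear scale, as MAS5 signals, which the authors computed per the submitters' processing notes. Their 2% trimmed mean was 150 on each array, and the MAS5 version, settings and genome build are not stated in the labels or the files. Of 45101 probe sets, 34945 had 1 gene symbol, 932 several and 9160 none, and 64 were controls, which were left out. Per gene, the probe set with the highest mean of log2(signal + 16) was used. It had to exceed the array median on all 3 arrays of a group. A single limma 3.58.1 fit (R 4.3.3) over the 12 arrays had a term for each of the 4 groups, an intensity trend and 5 two-sided comparisons.

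The members and lists were chosen with earlier results of these data known. All 10 members were named. From each list, up to 3 of the largest rises and falls among called genes could be named, together with Neurog1, Cdh1, Cdh2, Vim, Fn1, Esrp2, Grhl2, Ovol2, Pou5f1, Tubb3, defining cell type markers and the 3 genes most like each member. The further EMT factors named as dim, and Foxc1 and Prrx2, fall outside this rule and were chosen after their values were seen. Same-numbered arrays deviated together (r = 0.0308 to 0.577 over 18 pairs, across genes), above 0.1 for every pair in 4 of the 5 comparisons, so a replicate block was tried. Other alternatives were pseudocounts of 1 and 64, no filter or one at percentile 75, quantile normalization, the mean of all probe sets, array weights, only the 6 arrays compared, each array left out, and further probe sets of a member. The test was checked on simulated data. The number of arrays limits the precision.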

Additional observations from a re-analysis of the deposited data

Results flagged for a closer look

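Levels in induced cells differed between 24 h and 48 h for 3 members. This was tested as 48 h against 24 h with limma (3 arrays each, with the spread estimated over all 12). The shares of all genes tested that were called were 10.3% higher and 7.55% lower. Zeb1 differed by 1.471 on the log2(signal + 16) scale (adjusted p = 0.0183), Zeb2 by 2.18 (adjusted p = 0.0196) and Epcam by -2.507 (adjusted p = 0.00017). Without induced 24 h replicate 1 the differences were 0.93 (adjusted p = 0.00453), 1.28 (adjusted p = 0.00414) and -2.29 (adjusted p = 5.71e-05). With only the 6 arrays compared fitted, both Zeb calls were lost (adjusted p = 0.0966 for Zeb1 and 0.111 for Zeb2) and that of Epcam held (adjusted p = 0.00519). The call of Zeb1 was also lost without 48 h replicate 1 or 2 (adjusted p = 0.0645 and 0.0624). That of Zeb2 was lost without 48 h replicate 1 or 3 (adjusted p = 0.0702 and 0.066) or at a pseudocount of 1 (adjusted p = 0.0833). Further probe sets lost the call for Epcam (adjusted p = 0.0776), for Zeb1 (adjusted p = 0.202 and 0.644) and for Zeb2 (adjusted p = 0.257 and 0.18). The remaining further probe sets kept it for Zeb1 (adjusted p = 0.0285) and for Zeb2 (adjusted p = 0.00592 and 0.00547).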

How the results depend on the processing

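Over the alternatives, 1010 of 1130 member values kept their direction and side of the threshold, 68 lost and 14 gained a call, and 37 with no call changed sign. At 48 h and 72 h the calls of Zeb1, Zeb2, Epcam and Esrp1 held under every alternative that tested the gene, except further probe sets of Zeb1 and Zeb2. Esrp1 was not tested with the filter at percentile 75. Members called at 24 h were 3, against 1 with no filter or with the filter at percentile 75 (which tests 5 members), 0 with the 6 arrays compared fitted alone and 7 with array weights, where 24 h replicate 1 had a weight of 0.05. Leaving out 1 array gave 0 to 5. The 24 h replicate 1 gave 5 when left out, uninduced replicate 1 gave 0, and 1 was called without uninduced replicate 2, 24 h replicate 2, 48 h replicates 1 or 2, or any 72 h array. Members called at 48 h were 7, or 3 with the filter at percentile 75 and 4 to 7 with 1 array left out (4 without uninduced replicate 1 or 48 h replicate 2). At 72 h they were 6, or 3 with that filter and 5 to 6 with 1 array left out. For 48 h against 24 h they were 3, and 1 to 4 with 1 array left out (1 without 48 h replicate 1), and for 72 h against 48 h 0, or 2 (Epcam and Snai2) with array weights and 0 to 0 with 1 array left out.

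Quantile normalization moved the median of all genes by -0.146 at 48 h, -0.164 at 72 h and -0.11 for 48 h against 24 h. It ended the calls of Snai2 at 48 h (adjusted p = 0.0641) and Twist1 at 48 h and 72 h (adjusted p = 0.0949 and 0.0772), and the cause was not tested. The dimmest Zeb1 probe set was at -0.243 for 48 h against 24 h, opposite to the one used. The replicate block changed no member's call (3, 7 and 6 members at 24, 48 and 72 h), and gave 1676 genes in all at 24 h.

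Genes called in all were 1335 at 24 h, 365 with the 6 arrays alone, 2999 with array weights and 701 to 2961 with 1 array left out. At 48 h they were 4316, 6486 with the 6 arrays alone, 6756 with array weights and 3213 to 6717. At 72 h they were 5180, with 4064 to 7358. For 48 h against 24 h they were 2104, 1030 with the 6 arrays, 4095 with array weights and 1195 to 3007. For 72 h against 48 h they were 94, with 19 and 239 at pseudocounts 1 and 64, 51 with the filter at percentile 75, 159 with the mean of all probe sets, 439 with the 6 arrays, 1576 with array weights and 27 to 485. A filter on any 3 of the 12 arrays, chosen after seeing the data, changed none of these counts by over 1.5 times.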
